A study of Homo sapiens with 18 samples.

Results

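Expression of 10 genes of the YAP and TEAD axis was followed across Hep3B cells, a human hepatoma line, left as controls or given free fatty acids, alone or with fucoxanthin or Resmetirom. The genes were CCN1, CCN2, ANKRD1, AMOTL1, AMOTL2, AJUBA, LATS2, AXL, TEAD1 and YAP1, 10 of the 36684 gene symbols in the count table. CCN1 and CCN2 were chosen by their measured fold changes between Model and Con and between each FUCO group and Model. The other 8 were chosen as known YAP/TEAD targets or parts of the pathway, with their values in those same 4 contrasts in view. In these 4 contrasts the members' values are therefore given as a description, with no p-value.

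The 18 libraries formed 6 groups of 3. Con was the control and Model was the free fatty acid (FFA) group. FUCO-0.5, FUCO-1 and FUCO-2 received FFA with 0.5, 1 or 2 µM fucoxanthin (FUCO), a marine carotenoid, and RES received FFA with Resmetirom, an agonist of the thyroid hormone receptor beta that served as the positive control. All groups were the same single tumor line, so no stellate or immune cell was added and no genotype differed. The FFA concentration, the treatment times and the RES dose of these libraries are not given in the sources used here.

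YAP is a transcription cofactor that the Hippo kinases hold in the cytoplasm by phosphorylation. When it is not phosphorylated it enters the nucleus, where it binds TEAD factors and switches on genes such as CCN1 and CCN2. Several of its targets, among them LATS2 and AMOTL2, are themselves inhibitors of YAP and form a negative feedback. In the liver the pathway limits organ size, and CCN2 (connective tissue growth factor) is known for its part in fibrosis. RNA sequencing reads the mRNA of these genes and neither the phosphorylation nor the location of YAP.

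Each library held between 16916688 and 23083498 counts, and 14557 genes passed a filter on low counts and were tested together. Of the 10 members, 9 passed and AXL did not. Levels are given as CPM, which are counts scaled to library size with edgeR's TMM factors, and a call is an adjusted p under 0.05 from edgeR's quasi-likelihood test with Benjamini-Hochberg adjustment over all 14557 genes. The median log2 fold change of all tested genes lay between -0.01 and 0.01 in every comparison. All 7 hepatocyte markers were present, with a summed level of 57000 to 61300 CPM in Con and 13900 to 14200 CPM in RES. The stellate marker COL3A1 and the endothelial marker CDH5 were at 0 in all libraries. The 6 stellate markers together reached 11.3 to 36.7 CPM, mostly from PDGFRB (0.915 to 19.9 CPM) and LUM (2.91 to 18.3 CPM). The 3 endothelial markers summed to 0.162 to 1.93 CPM and the 3 blood markers to 2.87 to 19.6 CPM, nearly all of it LYZ. In a principal component analysis RES stood apart from the other groups on the first component, and Con replicate 1 stood apart from the other Con libraries on the second. In bulk RNA, fewer cells of one type and less RNA per cell cannot be told apart.

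TEAD factors recognise the letters GGAATG, so the 250 bases before the annotated start were searched for this motif on both strands. RefSeq promoter entries (GRCh38.p14) matched 8 members, without CCN1 and TEAD1. These 8 genes have 11 annotated windows, and the motif was present in 6 of the 11, 1 each for CCN2, ANKRD1, AMOTL2, AJUBA, AXL and YAP1. Of all 35116 windows of the same length, 11.9% held it. The 3 promoters printed here belong to the tested members with the largest changes that have an entry, with the motif in capitals (CATTCC is the same motif on the other strand). All 3 genes lie on the minus strand, and the sequences read toward the start of transcription, at chr6:131951373-131951622 for CCN2, chr10:90921088-90921337 for ANKRD1 and chr3:134374448-134374697 for AMOTL2.
CCN2: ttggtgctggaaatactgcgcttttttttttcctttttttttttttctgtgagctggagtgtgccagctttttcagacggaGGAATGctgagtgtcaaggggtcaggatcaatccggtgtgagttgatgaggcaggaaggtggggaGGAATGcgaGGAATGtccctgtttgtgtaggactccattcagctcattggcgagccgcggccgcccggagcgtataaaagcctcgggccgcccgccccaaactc
ANKRD1: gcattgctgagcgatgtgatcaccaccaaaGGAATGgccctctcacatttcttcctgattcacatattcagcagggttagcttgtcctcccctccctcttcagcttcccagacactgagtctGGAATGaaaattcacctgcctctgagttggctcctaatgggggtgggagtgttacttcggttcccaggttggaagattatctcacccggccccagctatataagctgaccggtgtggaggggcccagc
AMOTL2: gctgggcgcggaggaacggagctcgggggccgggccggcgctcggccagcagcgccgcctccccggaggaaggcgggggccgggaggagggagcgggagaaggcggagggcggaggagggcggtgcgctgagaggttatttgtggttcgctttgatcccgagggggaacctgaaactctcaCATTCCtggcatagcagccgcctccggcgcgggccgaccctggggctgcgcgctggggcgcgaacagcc

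CCN2 held 3 copies, and only 29 windows (0.0826%) held at least 3. ANKRD1 held 2 copies, and 0.94% of windows held at least 2. AMOTL2 held 1 copy in 1 of its 2 annotated windows. The AP-1-like pattern TGANTCA, which allows any base in the middle, matched among the members only in ANKRD1, where it read TGATTCA. Of all windows 6.57% matched this loose pattern. The EGR motif GCGNGGGCG was found only in YAP1 (8.41% of all windows), and the CArG box in none (1.16%). A match describes these letters and not binding. CCN2 is a known YAP/TEAD target, and the other members with an entry were chosen as such targets or as parts of the pathway. Their motif counts beside those of all windows are therefore not independent of the choice.

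Per kilobase of exon, CCN2 had the highest level of the 10 genes, at 182 CPM per kb on average over the 18 libraries. CCN1 followed at 45.9 CPM per kb, then AJUBA at 23.2, ANKRD1 at 16.3, YAP1 at 15.8, AMOTL2 at 9.66, TEAD1 at 7.49, LATS2 at 6.01 and AMOTL1 at 5.04 CPM per kb. AXL was lowest at 0.0464 CPM per kb. The order of neighbours was not fixed: ANKRD1 group means ran from 7.88 to 27.6 CPM per kb and those of YAP1 from 13.6 to 16.8, and LATS2 (4.79 to 6.61) overlapped with TEAD1 (6.51 to 8.03) and with AMOTL1 (4.31 to 5.45). CCN2 (108 to 331) lay above CCN1 (28.7 to 82.2) in every group.

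The secreted matrix proteins CCN1 and CCN2, which bind integrins, were highest in Model and lower with FUCO at every dose. CCN2 (chr6:131948176-131951372) stood at 331, 325 and 330 CPM in Con and at 745, 773 and 807 CPM in Model. At 0.5 µM FUCO it was at 341, 287 and 291 CPM, at 1 µM at 263, 281 and 211 CPM, and at 2 µM at 354, 362 and 320 CPM. All Model libraries lay above all Con and all FUCO libraries. The log2 fold change was 1.24 (SE 0.087) for Model against Con, and -1.34, -1.62 and -1.17 for 0.5, 1 and 2 µM FUCO against Model. Relative to the Model mean, CCN2 was at 42.4% in Con, 39.5% at 0.5 µM, 32.5% at 1 µM and 44.6% at 2 µM.

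CCN1 (chr1:85580761-85583950) was likewise highest in Model, at lower CPM than CCN2 in every library. It was at 166, 143 and 156 CPM in Con and at 295, 301 and 316 CPM in Model. With FUCO it was at 135, 102 and 109 CPM at 0.5 µM, at 111, 111 and 94.5 CPM at 1 µM, and at 140, 151 and 137 CPM at 2 µM. Here too no Model library overlapped with Con or with FUCO. The log2 fold change was 0.97 (SE 0.089) for Model against Con, just under the fold threshold of 1 (log2) in the study's methods, where CCN2 lay just above it at 1.24. Against Model it was -1.40, -1.53 and -1.09 at the 3 doses. The other CCN family members were barely counted. CCN3 had 0 to 2 counts per library, CCN4 0, CCN5 0 to 1 and CCN6 0 to 8, and none was tested. Beside these values, the summed blood markers ran from 2.87 to 3.7 CPM in Con, 12.5 to 18 CPM in Model, 10.6 to 19.6 CPM with FUCO and 5.77 to 6.73 CPM in RES, with PTPRC at no more than 2 counts, and the stellate sum from 28.1 to 36.7 CPM in Con and 18.5 to 20.4 CPM in Model. Their part in the results was not tested.

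**Figure D1:**
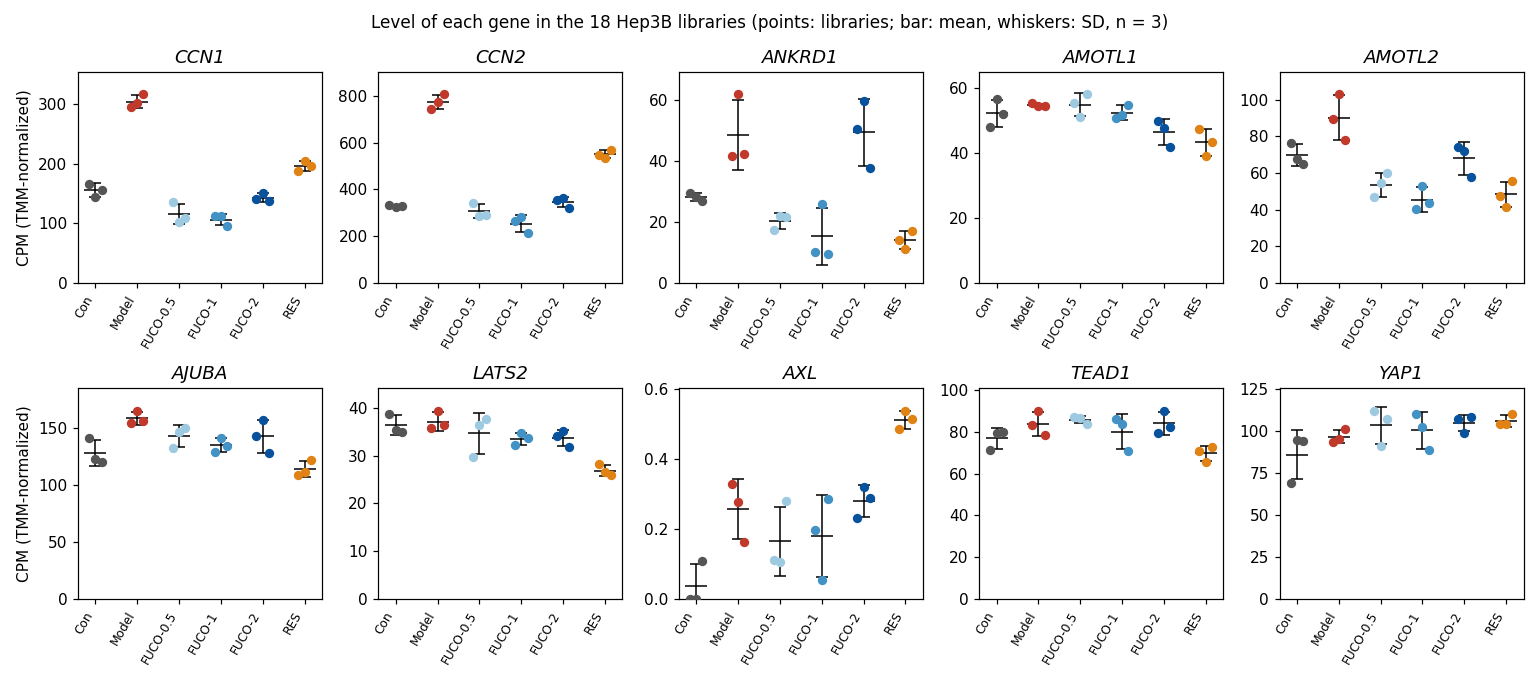
Levels (CPM, linear axes from 0) of the members in the 6 groups, 1 point per library with the mean and SD of 3. CCN1 and CCN2 are highest in the 3 Model libraries, while ANKRD1 at 2 µM FUCO lies as high as in Model.

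ANKRD1, a nuclear ankyrin repeat protein and a classical YAP target, was also highest in Model among the groups up to 1 µM FUCO but took another course at 2 µM. It was at 29.4, 28 and 26.8 CPM in Con and at 41.5, 61.9 and 42.4 CPM in Model. At 0.5 µM it was at 17.3, 21.9 and 21.6 CPM, and at 1 µM at 10.2, 26 and 9.31 CPM. At 2 µM it was back at 50.6, 59.9 and 37.7 CPM, a range that overlapped with Model. The 3 libraries at 1 µM were unequal, since replicate 2 lay above replicates 1 and 3. The log2 fold change was 0.79 (SE 0.23) for Model against Con, and -1.26, -1.68 and 0.03 for the 3 doses against Model. Without FUCO-1 replicate 2 the value at 1 µM was -2.32.

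AMOTL2, an angiomotin that binds YAP and restrains it, was at 76.5, 67.5 and 65 CPM in Con and at 89.8, 103 and 78.3 CPM in Model. With FUCO it was at 46.8, 54.3 and 59.8 CPM at 0.5 µM, at 40.1, 52.9 and 43.4 CPM at 1 µM and at 74.1, 72.3 and 57.7 CPM at 2 µM. Every Model library lay above every Con and FUCO library. The log2 fold changes against Model were -0.75, -0.99 and -0.41 at the 3 doses.

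The remaining members varied little across FFA and FUCO. AJUBA, a LIM protein that inhibits LATS kinases, had a log2 fold change of 0.30 for Model against Con (mean 158 ± 5.53 CPM in Model and 128 ± 11.1 CPM in Con, SD, n = 3) and of -0.15, -0.23 and -0.15 against Model with FUCO. LATS2, the kinase that phosphorylates YAP, AMOTL1, an angiomotin related to AMOTL2, and TEAD1 and YAP1, the pathway's DNA-binding factor and its cofactor, stayed within 0.25 of 0 on the log2 scale in all 4 contrasts. YAP1 itself was at 68.8, 94.6 and 93.8 CPM in Con and at 93.3, 95.4 and 101 CPM in Model, ranges that overlapped. The log2 fold change of YAP1 was 0.17 for Model against Con and 0.10, 0.05 and 0.11 for the FUCO doses against Model.

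The 4 contrasts that chose the members fixed how they would count there, so the following numbers only describe the choice. Of the 9 members in the fit, 5 were past the threshold as higher in Model than in Con (CCN1, CCN2, ANKRD1, AMOTL2 and AJUBA) and 0 as lower. Of all genes 8.43% were higher and 9.12% lower in that comparison. The count of members was 2 without Con replicate 2 or without Model replicate 2, and 3 without Con replicate 3. At 0.5 µM FUCO 4 members were lower than in Model (CCN1, CCN2, ANKRD1 and AMOTL2) and 0 higher, where 1.16% of all genes were lower and 0.289% higher. At 1 µM the same 4 members were lower, where 2.32% of all genes were lower and 0.893% higher. At 2 µM 3 were lower (CCN1, CCN2 and AMOTL2), where 9.71% of all genes were lower and 10.8% higher.

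**Figure D2:**
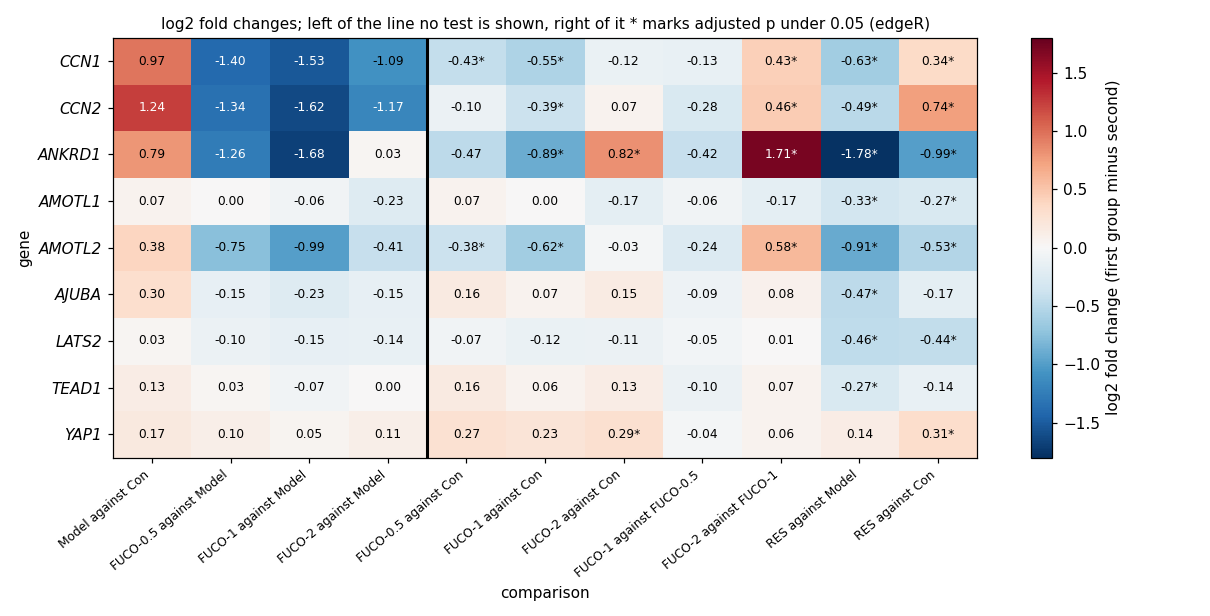
Log2 fold changes of the members in the comparisons, in the 11 comparisons, as a colour map with the value printed in each cell. The line divides the contrasts that chose the members, shown with no test, from those where a star marks an adjusted p under 0.05. ANKRD1 is the member whose value at 2 µM FUCO against Model (0.03) lies apart from those at 0.5 µM (-1.26) and 1 µM (-1.68).

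The next question was how the FUCO groups stood against cells without FFA. These comparisons did not choose the members, but they share the Con or FUCO libraries with those that did and with each other. At 0.5 µM, CCN1 (log2 fold change -0.43, SE 0.089, adjusted p = 0.0011) and AMOTL2 (-0.38, SE 0.12, adjusted p = 0.0291) were lower than in Con, where 11.4% of all genes were lower and 10.4% higher. The AMOTL2 call was lost without Con replicate 1, without FUCO-0.5 replicate 1 or without FUCO-0.5 replicate 2 (adjusted p = 0.1, 0.156 and 0.0594). CCN2 was at -0.10 with a 95% confidence interval from -0.28 to 0.08 (adjusted p = 0.43). ANKRD1 (-0.47, adjusted p = 0.177) was called without the filter on low counts (0.000113) and in a fit of the 2 groups alone (0.0123), and YAP1 (0.27, adjusted p = 0.058) was called without the filter (0.0156).

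At 1 µM 4 of 9 members were below Con, where 10.1% of all genes were lower and 8.22% higher. CCN1 was at -0.55 on the log2 scale (SE 0.089, adjusted p = 8.65e-05), AMOTL2 at -0.62 (SE 0.12, adjusted p = 0.000991) and CCN2 at -0.39 (SE 0.087, adjusted p = 0.00271), and for all 3 the groups did not overlap. ANKRD1 was at -0.89 (SE 0.25, adjusted p = 0.0145). That call was lost without FUCO-1 replicate 1 (adjusted p = 0.0998) or replicate 3 (0.102), and the value was -1.53 without replicate 2.

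At 2 µM no member was below Con and 2 were above it, where 13.0% of all genes were higher and 11.9% lower. ANKRD1 was higher (0.82, SE 0.23, adjusted p = 0.0122), and the call was lost without FUCO-2 replicate 2 (adjusted p = 0.0733) and with DESeq2 (0.0639). YAP1 was higher by 0.29 (SE 0.1, adjusted p = 0.0393). Without Con replicate 1, the library at 68.8 CPM, YAP1 was at 0.15 (adjusted p = 0.222), and its call was also lost without FUCO-2 replicate 1 (0.074) or replicate 3 (0.103) and with a fit of the 2 groups alone (0.113). For CCN1 (-0.12, interval -0.30 to 0.06), CCN2 (0.07, interval -0.11 to 0.25) and AMOTL2 (-0.03, interval -0.29 to 0.22) no difference from Con was called.

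The doses were then compared with each other, in FUCO libraries that the choice of the members had also used. Genes chosen for a low level at 1 µM are more likely to lie higher at another dose. These counts and p-values are therefore not independent of the choice. From 0.5 to 1 µM 0 of 9 members were called by edgeR (1 at an unadjusted p under 0.05, and 0 called by DESeq2), and of all genes 0% were higher and 0.00687% lower. That share is 1 gene, KLF6, an early response transcription factor named here after its value was seen, and 1557 genes had an unadjusted p under 0.05. CCN2 had the log2 fold change -0.28 (interval -0.46 to -0.10, adjusted p = 0.262). ANKRD1, at -0.42, was called without the filter (adjusted p = 0.0286). From 1 to 2 µM 4 members rose and 0 fell, where 4.07% of all genes were higher and 2.23% lower. ANKRD1 rose most (1.71, SE 0.25, adjusted p = 0.000132), followed by AMOTL2 (0.58, SE 0.12, adjusted p = 0.00556), CCN2 (0.46, SE 0.087, adjusted p = 0.00226) and CCN1 (0.43, SE 0.089, adjusted p = 0.00457). For each of the 4 genes, all 2 µM libraries lay above all 1 µM libraries, and the call held without any single one of the 18 libraries. ANKRD1 was at 2.34 without FUCO-1 replicate 2.

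**Figure D3:**
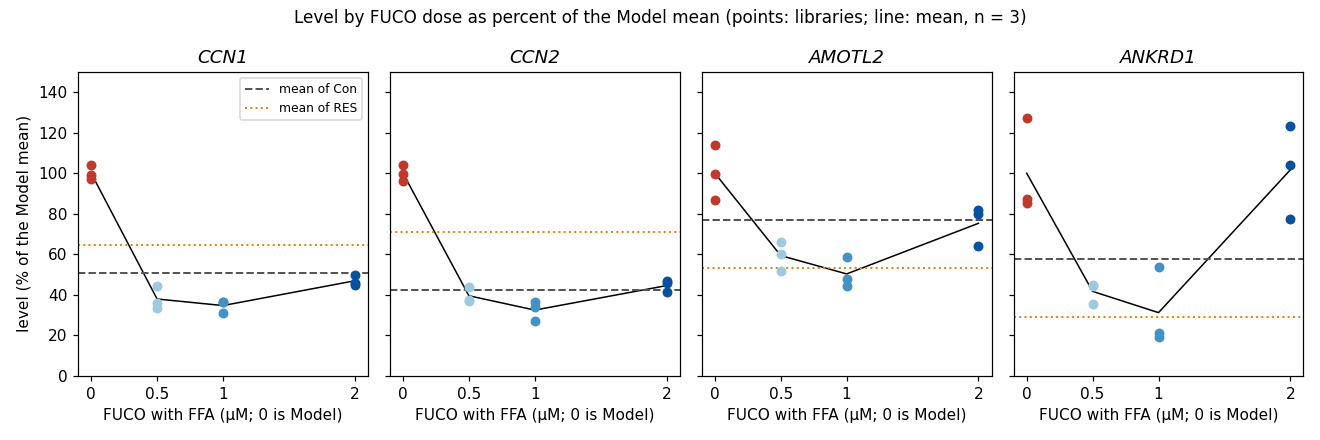
Level of CCN1, CCN2, AMOTL2 and ANKRD1 in each FUCO library as a percent of the Model mean (100) against FUCO concentration in µM. Axes are linear, with lines through the means of 3 and at the means of Con and RES. The other members are not drawn. CCN2 means are 39.5%, 32.5% and 44.6% at 0.5, 1 and 2 µM, and those of ANKRD1 are 41.7%, 31.2% and 102%.

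The RES libraries played no part in the choice of the members, but the Model and Con libraries they are set against did. Genes chosen for a high level in Model are more likely to lie below it in any other group, so the counts against Model are not independent of the choice. Of the 9 members 8 were lower than in Model and 0 higher, where 25.1% of all genes were lower and 24.4% higher. ANKRD1 was at 13.9, 11.2 and 17.1 CPM with RES, a log2 difference of -1.78 from Model (SE 0.24, adjusted p = 1.64e-06). AMOTL2 was at 47.4, 41.6 and 55.7 CPM, a difference of -0.91 (SE 0.12, adjusted p = 1.31e-06). Neither gene overlapped with Model in any library.

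CCN1 was at 188, 205 and 196 CPM with RES, which is -0.63 against Model (log2, SE 0.088, adjusted p = 1.97e-06). CCN2 was at 547, 536 and 569 CPM, which is -0.49 (SE 0.086, adjusted p = 4.04e-05). Both lay between Con and Model without overlap with either. AJUBA (-0.47, adjusted p = 2.92e-05), LATS2 (-0.46, adjusted p = 8.99e-05), AMOTL1 (-0.33, adjusted p = 0.00196) and TEAD1 (-0.27, adjusted p = 0.00749) also fell. The TEAD1 call was lost without Model replicate 2 (adjusted p = 0.0551). YAP1 was the member that was not called, at 0.14 (interval -0.07 to 0.34, adjusted p = 0.273), although a fit of the 2 groups alone called it higher (adjusted p = 0.0242).

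Against Con, 3 members were higher with RES and 4 lower. CCN2 (0.74, SE 0.086, adjusted p = 8.56e-08), CCN1 (0.34, SE 0.088, adjusted p = 0.00208) and YAP1 (0.31, SE 0.1, adjusted p = 0.0113) were higher, where 28.8% of all genes were higher and 28.5% lower. ANKRD1 (-0.99, adjusted p = 0.00155), AMOTL2 (-0.53, adjusted p = 0.000739), LATS2 (-0.44, adjusted p = 0.00014) and AMOTL1 (-0.27, adjusted p = 0.00884) were lower. AJUBA (-0.17, adjusted p = 0.0755) and TEAD1 (-0.14, adjusted p = 0.135) were not called. The YAP1 call was lost without Con replicate 1 (0.17, adjusted p = 0.115), and the AMOTL1 call without Con replicate 2 (0.0593) or RES replicate 2 (0.0726). The summed hepatocyte markers were also lowest in RES, and their part in these values was not tested.

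AXL, a receptor tyrosine kinase, was counted 0, 0 and 2 times in Con, 6, 5 and 3 times in Model, 2, 2 and 5 times at 0.5 µM, 4, 1 and 5 times at 1 µM, 4, 6 and 5 times at 2 µM, and 12, 10 and 11 times with RES. The RES counts lay above those of every other library, but the gene did not pass the filter and has no value in the main test. In the fit without the filter it was called higher than in Con with RES (adjusted p = 7.73e-05) and at 2 µM FUCO (adjusted p = 0.0302), and not in RES against Model (adjusted p = 0.194). Its ligand GAS6 was at 0 or 1 count.

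Other YAP/TAZ targets of a YAP/TAZ signature changed in both directions. Of 16 genes 14 were tested, and in Model against Con 4 were higher and 1 lower, with a median log2 fold change of 0.28. Of all genes 8.43% were higher and 9.12% lower there. NT5E, the ecto-enzyme CD73 that makes adenosine, rose from 135 ± 10.9 to 229 ± 18.3 CPM (0.77, adjusted p = 3.14e-07), and FJX1 rose by 0.90 (adjusted p = 0.0177), while DOCK5, an exchange factor for small GTPases, fell by 0.37 (adjusted p = 0.0058). At 1 µM FUCO against Model, where 2.32% of all genes were lower and 0.893% higher, 1 was lower and 0 higher (median -0.17). That gene was GADD45A, a growth arrest and DNA damage gene, at 39.3 ± 5.14 CPM in Model and 24.4 ± 0.75 CPM at 1 µM (-0.68, adjusted p = 0.00191). NT5E stayed at 243 ± 22.9 CPM at 1 µM. At 2 µM 3 were higher and 1 lower, where 10.8% of all genes were higher and 9.71% lower. The higher ones included MYOF (0.80, adjusted p = 0.00977) and FJX1 (0.79, adjusted p = 0.00982), and the lower one was IGFBP3 (-0.47, adjusted p = 0.00174). With RES 4 were higher and 5 lower than in Model, where 24.4% of all genes were higher and 25.1% lower. GADD45A was at 0.79 (adjusted p = 7.73e-06) and MYOF at 1.09 (adjusted p = 0.000111). TGFB2, a transforming growth factor, was at -1.84 (adjusted p = 1.78e-09) and ARHGEF17 at -0.81 (adjusted p = 2.1e-07).

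Upstream, all 20 Hippo kinases, regulators and TEAD cofactors were tested. In Model 3 were higher and 2 lower than in Con (median 0.05), where 8.43% of all genes were higher and 9.12% lower. The higher ones included WWTR1, which encodes the YAP paralog TAZ (0.41, adjusted p = 0.0016), and WWC1, the scaffold KIBRA (0.49, adjusted p = 0.00191). MAP4K4, a Hippo kinase (-0.35, adjusted p = 0.000889), and TEAD2 (-0.25, adjusted p = 0.0417) were lower. At 0.5 and 1 µM FUCO 0 of 20 were called by edgeR against Model, with 0 and 3 at an unadjusted p under 0.05 and with 0 and 1 called by DESeq2. Of all genes edgeR called 0.289% and 0.893% higher and 1.16% and 2.32% lower at these 2 doses. At 2 µM TEAD4 was higher (0.46, adjusted p = 0.00414) and AMOT, the angiomotin that gave the family its name, was lower (-0.80, adjusted p = 1.36e-05). Of all genes 10.8% were higher and 9.71% lower at that dose. With RES 5 were higher and 8 lower than in Model, where 24.4% of all genes were higher and 25.1% lower. TEAD2 fell from 60.5 ± 1.85 to 24.6 ± 2.26 CPM (-1.29, adjusted p = 1.4e-11) and AMOT from 15.9 ± 0.53 to 7.93 ± 0.732 CPM (adjusted p = 3.82e-08), while SAV1, the scaffold of the MST kinases (0.59, adjusted p = 0.000297), and TAOK3, a kinase upstream of them (0.53, adjusted p = 2.09e-05), rose.

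**Figure D4:**
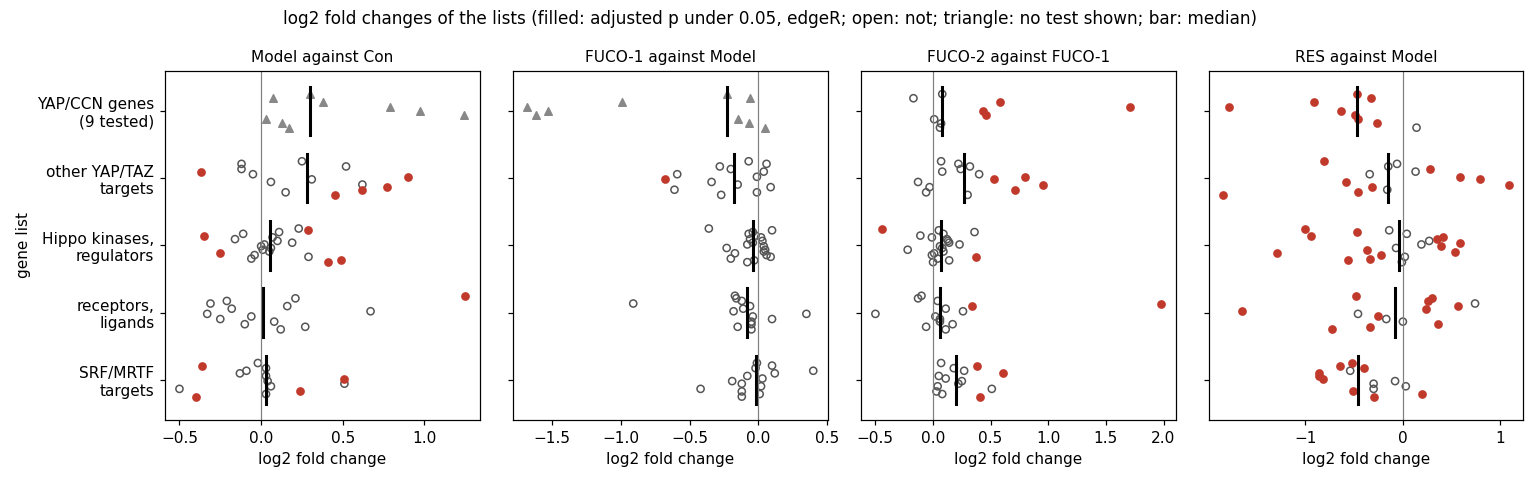
Log2 fold changes of the genes in each list in 4 comparisons, 1 point per gene with the list's median as a bar. Members in the contrasts that chose them are drawn as triangles, without a test. With RES the cytoskeletal targets have a median of -0.46, and the Hippo genes one of -0.04.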

How the data were processed

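Hep3B mRNA was sequenced in 6 groups of 3 libraries, and groups were read from the sample titles. The authors trimmed paired-end reads with fastp, aligned them with STAR to GRCh38.p14 and made the deposited counts per gene with featureCounts, without normalization. Strand and multi-match settings are not given in the sources used here. The authors describe biological replicates, and no label ties libraries across groups.

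Counts were fitted in R 4.3.3 with edgeR 4.0.16 (filterByExpr with minimum count 10 and total 15, TMM, quasi-likelihood test, all 18 libraries with 1 term per group, Benjamini-Hochberg adjustment). The authors used DESeq2, and version 1.42.0 of it was run here as an alternative, as were RLE factors, no filter, fits of 2 groups, a replicate block and leaving out each library. Lengths came from GENCODE 44 and positions and promoters from RefSeq.

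The members and lists were chosen with earlier results of these data known. Named genes are all members and, per list, up to 2 called genes with the largest rise and 2 with the largest fall in Model against Con and in FUCO-1, FUCO-2 and RES against Model (average level of 1 CPM or more), with the 5 genes most correlated with CCN1 and with CCN2. Totals of 16916688 to 23083498 counts set the precision, and counting errors are within the fits. For libraries of different groups, deviations from the group mean had a median correlation of 0.02 with the same replicate number and -0.02 with different numbers. A correlation over 0.1 was found in 7 of 45 and 8 of 90 of these pairs.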

Additional observations from a re-analysis of the deposited data

How the results depend on the processing

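The 4 member calls between 2 and 1 µM FUCO and the member calls at 0.5 and 1 µM against Con for CCN1 kept their direction under DESeq2, RLE factors, no filter and 2-group fits. Without the filter, 4 members were called at 0.5 µM against Con (2 with the filter), and ANKRD1 was called between 1 and 0.5 µM (1 member, against 0). Members called at 2 µM against Con numbered 1 with DESeq2 and 1 with 2 groups (2 otherwise).

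Numbers of all genes called also moved with the setting. Without the filter 354 genes were called at 0.5 µM against Model (211 with it) and 144 between 1 and 0.5 µM (1 with it). With 2 groups these were 351 and 18, with 976 at 1 µM against Model (467 in the full fit), 2201 at 2 µM against Con (3617) and 533 between 2 and 1 µM (917). DESeq2 called 57 genes between 1 and 0.5 µM. A replicate block called 8 there, and it moved no member count by more than 1.5 times.

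Leaving out each library in turn gave 2 to 6 members in Model against Con, 3 to 4, 4 and 2 to 4 at 0.5, 1 and 2 µM against Model, 1 to 4, 3 to 5 and 1 to 3 at these doses against Con, 0 between 1 and 0.5 µM, 4 between 2 and 1 µM, 7 to 8 in RES against Model and 6 to 9 in RES against Con. For all genes it gave 1597 to 3047 in Model against Con, 110 to 290, 220 to 661 and 1972 to 3366 at the 3 doses against Model, 2359 to 3618, 1634 to 3266 and 2600 to 3838 against Con, 0 to 20 between 1 and 0.5 µM, 366 to 1228 between 2 and 1 µM, 6130 to 7539 in RES against Model and 7546 to 8647 in RES against Con. Among comparisons that did not choose the members, values near 0 that were not called changed sign: AMOTL1 at 1 µM against Con (-0.05 to 0.07), AMOTL2 at 2 µM against Con (-0.10 to 0.07), LATS2 at 0.5 µM against Con (-0.13 to 0.03), between 1 and 0.5 µM CCN1 (-0.21 to 0.00), LATS2 (-0.14 to 0.02) and YAP1 (-0.13 to 0.04), and between 2 and 1 µM LATS2 (-0.02 to 0.05), TEAD1 (-0.01 to 0.12) and YAP1 (-0.02 to 0.13). In the contrasts that chose them, ranges also crossed 0 for ANKRD1 at 2 µM against Model (-0.14 to 0.24), AMOTL1 at 0.5 µM (-0.04 to 0.05), TEAD1 at 0.5, 1 and 2 µM (-0.01 to 0.09, -0.12 to 0.02 and -0.05 to 0.06), YAP1 at 1 µM (-0.01 to 0.13) and LATS2 in Model against Con (-0.02 to 0.08). The cause was not tested. AXL, at 0 to 12 counts per library, did not pass the filter in the main fit. In the edgeR fit without the filter it adds 1 call at 2 µM against Con and 1 in RES against Con. DESeq2, run without that filter, called 8 members in RES against Con (7 in the main fit), and no other member's call changed there. The filter was rerun whenever a library was left out, so AXL could enter those fits. The member ranges above can therefore include AXL, and at 1 µM against Con no other member gained a call.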

Other observations

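Over the 18 libraries, CCN2 was the gene whose log2 CPM was most like that of CCN1 (Pearson r = 0.968 among 13077 genes), followed by BTG2 (0.930), EGR2 (0.926), JUN (0.926) and NR4A1 (0.916), which are early response genes. For CCN2 the next genes after CCN1 were PELO (0.932), DUSP1 (0.929), NR4A1 (0.924) and BTG2 (0.920). PELO shares its start with ITGA1, so its counts are uncertain. CCN1 and CCN2 were both chosen by fold changes among the Con, Model and FUCO groups, so their likeness is not independent of the choice. The points share groups and libraries, and the values are a description. Without the RES libraries, 3 of CCN1's 5 genes remained among its top 5. ANKRD1 was more like AMOTL2 (r = 0.90) than like CCN2 (r = 0.38).

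Among SRF and MRTF cytoskeletal targets, 14 of 16 were tested. In Model 2 were higher and 2 lower than in Con, where 8.43% of all genes were higher and 9.12% lower. MYL9, a myosin light chain, was at 28.6 ± 1.07 CPM in Con and 40.7 ± 1.35 CPM in Model (log2 fold change 0.51, adjusted p = 0.00316). TPM1 was at 0.24 (0.0305), ACTG1, a cytoplasmic actin, at -0.36 (0.00377) and ZYX at -0.40 (0.0187). At 2 µM FUCO against Model FLNA, an actin crosslinker (0.73, adjusted p = 0.00102), and ACTG1 (0.48, adjusted p = 0.000293) were higher. Of all genes 10.8% were higher and 9.71% lower in that comparison. With RES 8 were lower than in Model and 1 higher (VCL, 0.20, adjusted p = 0.0397), where 25.1% of all genes were lower and 24.4% higher. MYH9 and FLNA were both at -0.86.

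Of 15 receptors and ligands of the members 14 were tested. ITGA2B, an integrin chain of platelets, rose from 2.24 ± 0.124 to 5.34 ± 0.447 CPM in Model (1.25, adjusted p = 5.67e-05) and fell with RES (-0.48, adjusted p = 0.0213). ITGAV, an integrin chain that binds CCN proteins, was higher at 2 µM FUCO (0.29, adjusted p = 0.0274) and with RES (0.57, adjusted p = 1.25e-05) than in Model. The AXL relatives MERTK (0.36, adjusted p = 0.00503) and TYRO3 (-0.73, adjusted p = 2.11e-07) moved in opposite directions with RES.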
